A study of Drosophila melanogaster with 2 samples.

Results

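The mRNAs of the translation initiation and elongation factors were followed in stage 14 oocytes of *Drosophila melanogaster*, the mature oocytes that await egg activation. Members were the rows of the deposited table whose gene name begins with eIF, eEF, EF1, EF2, EFT or Ef1, together with *Trip1* and *Int6*, which encode eIF3 subunits under other names. This rule took 40 of the 16863 genes in the table and used no measured value, but it was set with earlier results known. The genes were placed by name in 5 families, with 8 for eIF2 and its exchange factor eIF2B, 9 for eIF3, 11 for eIF4, 6 for other initiation factors and 6 for elongation factors.

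Both libraries came from the same kind of material, stage 14 oocytes of w1118;eGFP-Me31B flies, collected in bulk from a large culture, so that many oocytes were pooled in each. The input library held RNA of the oocyte lysate without immunoprecipitation, and the other library held RNA that came down with ME31B, a DEAD-box helicase that represses maternal mRNAs with its partners Cup and TRAL. No antibody is labelled for the immunoprecipitate, and its protocol speaks of beads with either anti-GFP or IgG, so reading it as the anti-GFP library rests on the methods. RNA from the immunoprecipitate is called bound RNA here. The methods also name untagged w1118 flies for these oocytes, where the labels give the eGFP-Me31B strain. Each condition has 1 library, so no difference below has a replicate check, no p-value was computed, and RNA carried down by control beads was not analysed here.

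Initiation begins when eIF2, bound to GTP, brings the initiator tRNA to the small ribosomal subunit, which eIF3 and smaller factors prepare. The cap-binding protein eIF4E, the scaffold eIF4G and the helicase eIF4A join the mRNA to this complex, and eIF5B then brings in the large subunit. In elongation, eEF1A delivers each aminoacyl-tRNA, the other eEF1 subunits recharge it with GTP, and eEF2 moves the ribosome along. In the fly oocyte, Cup binds eIF4E and holds ME31B-bound mRNAs silent.

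The values are FPKM, read numbers scaled to transcript length and to library size, so that levels of different genes can be set side by side per length. Occupancy is the immunoprecipitate FPKM over the input FPKM, taken as log2 for the 6886 genes that exceeded 0.5 FPKM in each library and expressed relative to the median of those genes, whose occupancy was 1.26. A gene was counted as low or high when it lay at least 2-fold from that median. For low, short protein-coding genes, FPKM times gene length in kilobases was taken within a set window from 0.08 to 0.18. Its median there, 0.129 in the input and 0.121 in the immunoprecipitate, was assumed to be the value of a single read. The window itself bounds this median, and no peak was tested. Under that assumption the depth was roughly 7700000 and 8200000 mapped reads. By that estimate the least abundant member kept, *eIF4G2*, had about 62 reads per kilobase in the input and 47 in the immunoprecipitate, a counting error of about 13% and 15%. For the other members kept the counting error per kilobase was smaller, but it does not include the error of a repeated immunoprecipitation.

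Markers of the germline were present, as the label has it. All 10 oocyte and germline markers were above 0.5 FPKM in both libraries, at 0.255% of the summed FPKM of the input and 0.631% of that of the immunoprecipitate. Most of that difference was *pgc*, at 921 and 4674 FPKM, and the median relative log2 occupancy of the 10 was −0.02, with 5 above the median gene and 5 below it. Follicle cell genes were also present, as 11 of 13 chorion, vitelline membrane and yolk genes passed the filter, with a summed share of 0.0812% and 0.0446%. Of these 11, 6 (54.5%) lay at least 2-fold below the median gene, a share to be read against the 15.2% of all genes given below, and their median was −1.09. Of 10 testis genes only *bam*, which also acts in the female germline, passed, and no muscle gene exceeded 2.21 FPKM. Whether follicle cell RNA contributed to the factor mRNAs was not tested.

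Of the 40 factor genes, 33 passed the filter, and most of these lay below the median gene. A total of 25 were below it and 8 above it, with a median log2 occupancy of −0.36 and a range from −2.39 to 1.17. At least 2-fold below stood 9 of the 33 mRNAs (27.3%), against 15.2% of all genes kept. At least 2-fold above stood 3 mRNAs (9.09%), against 9.48% of all genes kept, so that the upper share was near the background. The low mRNAs were *Ef1alpha48D*, *EF2* and *Ef1gamma* of the elongation factors, *eIF3-S10*, *eIF3-S8* and *eIF3-S9* of eIF3, *eIF-4a*, *eIF5B* and *eIF-5A*. The high mRNAs were *eIF-4E*, *eIF4AIII* and *eIF6*. *eIF-2alpha*, at −0.97, lay just short of the 2-fold line and was past it under 3 alternatives, at −1.02 among genes above 5 FPKM and at −1.26 and −1.21 with a trend on input FPKM or on span subtracted.

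**Figure D1:**
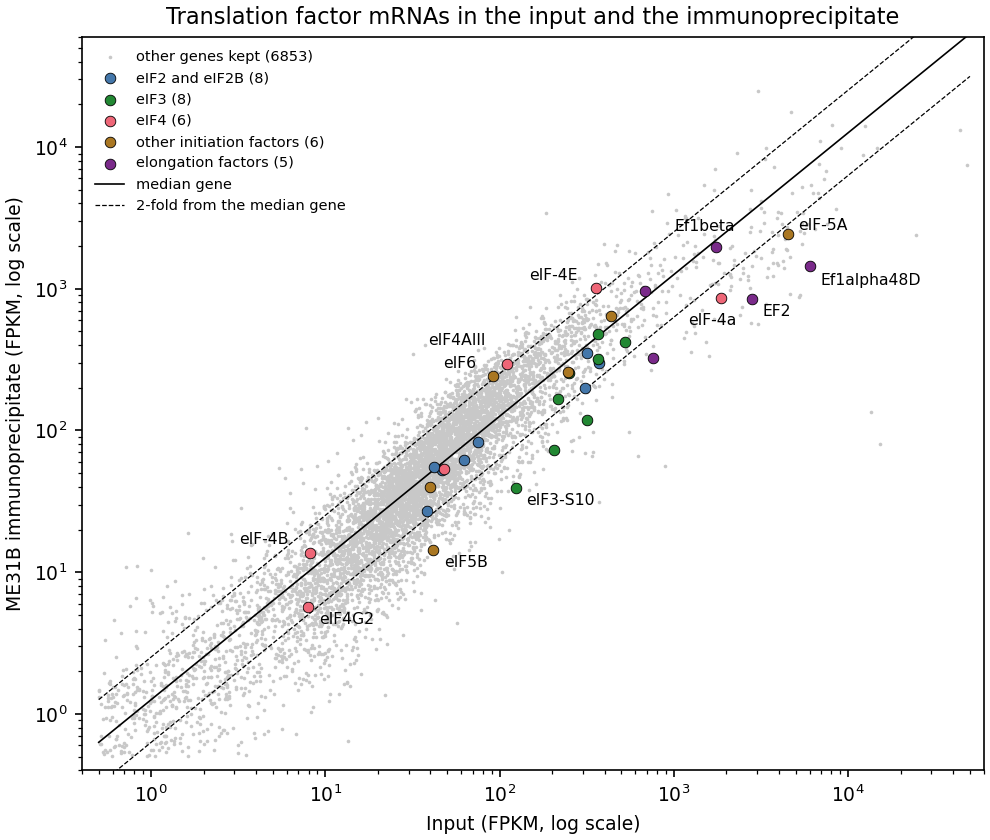
Input FPKM (x axis) and immunoprecipitate FPKM (y axis) of each gene above 0.5 FPKM in both libraries, both on log scales, with 33 factor mRNAs coloured by family and the other genes in grey. The solid line marks the median gene and the dashed lines 2-fold from it; *Ef1alpha48D*, *EF2* and *eIF-4a* lie under the lower line at the abundant end and *eIF-4E* above the upper line.

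As a whole, the 40 genes held 2.18% of the summed FPKM of the input and 1.27% of that of the immunoprecipitate. The 5 members at or above 1000 FPKM in the input held 1.58% of the input sum and 0.667% of the immunoprecipitate sum. The other 35 members held 0.602% and 0.606%, so their summed share did not fall. All genes at or above 1000 FPKM in the input went from 59.2% to 40.4%. The 3 most abundant, *Ef1alpha48D*, *eIF-5A* and *EF2*, held 1.25% of the input sum and 0.418% of the immunoprecipitate sum. Initiation factors alone were at 1.06% and 0.784%, and elongation factors at 1.12% and 0.489%. The initiation factor sums of 11414 and 8875 FPKM included 4527 and 2439 FPKM of *eIF-5A*, whose protein is known to assist elongation. These sums also included 1873 and 856 FPKM of *eIF-4a*. The medians of the families ran from −1.58 for elongation factors through −0.68 for eIF3, −0.29 for other initiation factors and −0.27 for eIF2 and eIF2B to 0.11 for eIF4. With 5 to 8 mRNAs kept per family and wide overlap between families, these medians are a description, and no family was tested against another. With the members over 1000 FPKM in the input left out, 5 of 28 mRNAs (17.9%) were 2-fold low, near the 15.2% of all genes kept, and the median of the 2 elongation factors left was −0.71. With the 3 elongation factors whose genes overlap no other gene, it was −0.16.

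**Figure D2:**
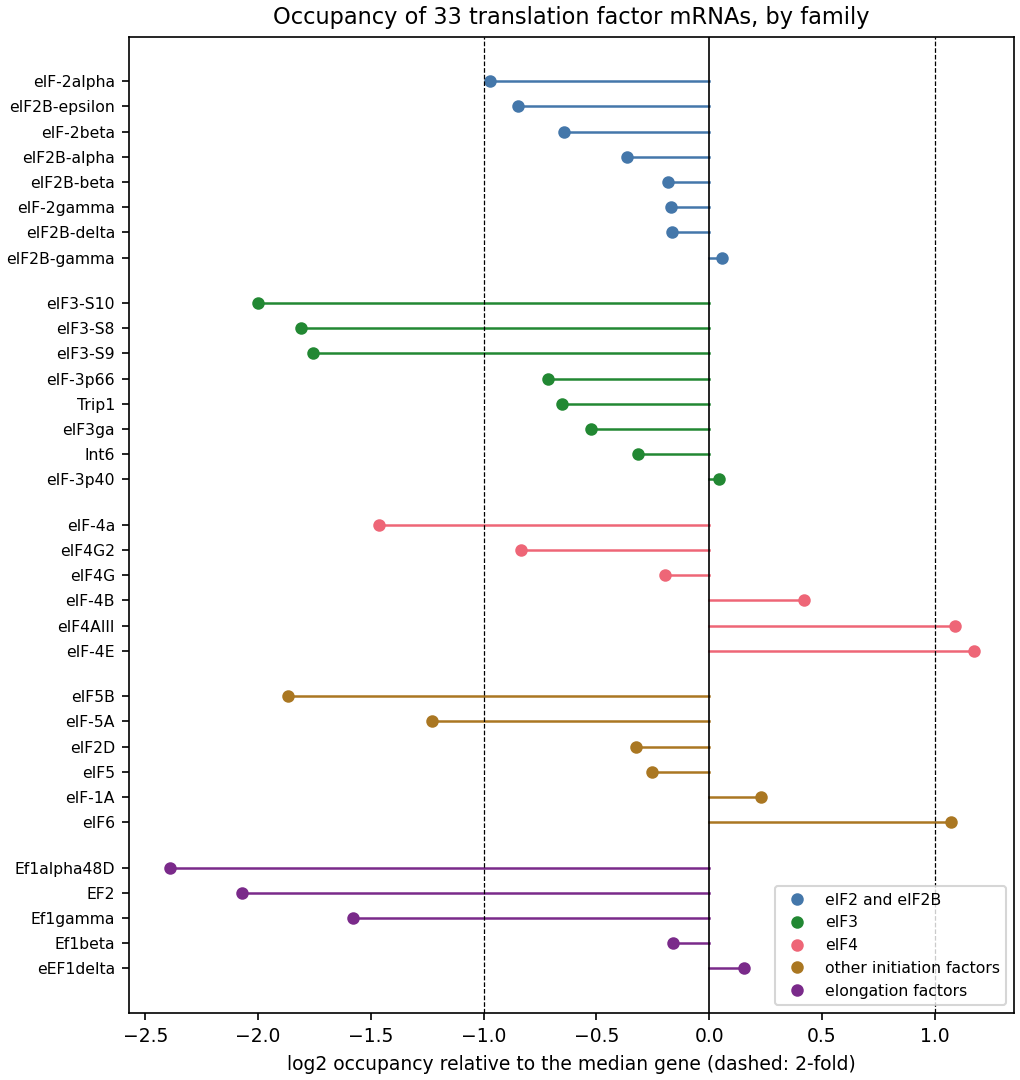
Log2 occupancy relative to the median gene (x axis) of the 33 factor mRNAs kept, grouped and coloured by family and ordered within each from low to high. Dashed lines mark 2-fold. Past the lower line lie 3 of 5 elongation factor mRNAs and 3 of 8 eIF3 mRNAs, against 15.2% of all genes kept. The 5 elongation factors all exceed 500 FPKM in the input, where 29.6% of protein-coding genes are low. None of the 8 eIF2 and eIF2B mRNAs lies past either line, and 9.48% of all genes kept lie past the upper one.

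The mRNAs of eIF2 and eIF2B stayed closest together. All 8 passed the filter and none was 2-fold from the median gene, with 7 below it and 1 above it. Over all genes kept, 15.2% were 2-fold low and 9.48% 2-fold high, shares at which 8 mRNAs can easily include none. The eIF2 trimer was present at even levels in the input, with 310 FPKM for *eIF-2alpha*, 370 FPKM for *eIF-2beta* and 316 FPKM for *eIF-2gamma*. In the immunoprecipitate the same mRNAs were at 199, 299 and 355 FPKM. *eIF-2alpha*, whose protein carries the serine that stress kinases phosphorylate to lower initiation, thus had the lowest occupancy of the trimer, and *eIF-2gamma*, which encodes the GTP-binding subunit, the highest at −0.17. The difference between them was 0.80 on the log2 scale, and *eIF-2beta* lay between at −0.64.

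The eIF2B mRNAs were several times less abundant than those of its substrate eIF2, at 38.4 to 74.9 FPKM in the input and 26.9 to 83.2 FPKM in the immunoprecipitate. eIF2B exchanges the GDP on eIF2 for GTP, and its epsilon subunit carries the catalytic domain. *eIF2B-epsilon* had the lowest occupancy of the 5, from 38.4 FPKM in input RNA to 26.9 in bound RNA, a relative value of −0.85. The mRNA of *eIF2B-gamma*, the other subunit of the catalytic part, was the highest at 0.06, from 42.2 to 55.3 FPKM. The regulatory subunits *eIF2B-alpha*, *eIF2B-beta* and *eIF2B-delta* stood at −0.36, −0.18 and −0.16. Each gene for eIF2 and eIF2B overlaps another annotated gene on the genome, among them *rngo* for *eIF-2alpha* and *Su(var)3-9* for *eIF-2gamma*, and reads in shared parts may have been counted for either.

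The eIF4 family showed both extremes of the initiation machinery that meets the cap. *eIF-4E*, which encodes the main cap-binding protein and the binding partner of Cup, had 356 FPKM in input RNA and 1013 FPKM in bound RNA. Its relative log2 occupancy of 1.17 was the highest of the 33 mRNAs, and 94.0% of all genes kept were lower. The gene lies on chromosome arm 3L of Release 6 at positions 9399618 to 9402460 and overlaps no other annotated gene. *eIF-4a* (2L, 5981764 to 5985909), which encodes the helicase that works with eIF4E at the cap, had 1873 FPKM in input RNA and 856 FPKM in bound RNA, a relative value of −1.46. The *eIF-4a* mRNA was thus 5.25 times as abundant as *eIF-4E* mRNA in the input, whereas in the immunoprecipitate *eIF-4E* was 1.18 times as abundant as *eIF-4a*.

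*eIF4AIII*, which encodes a close relative of eIF4A that sits in the exon junction complex and is needed for localization of *oskar* mRNA, differed from *eIF-4a* in both level and occupancy. It had 110 FPKM in input RNA and 295 FPKM in bound RNA, a relative value of 1.09, which was 2.55 above that of *eIF-4a* on the log2 scale. Its span (3R, 8313208 to 8314864) overlaps *Coq2*. The scaffold *eIF4G* lay near the median gene at −0.19, from 48.2 to 53.1 FPKM. *eIF4G2*, a paralog that serves in male germ cells, was at 7.97 FPKM in input RNA and 5.64 FPKM in bound RNA, a relative value of −0.83. *eIF-4B*, which encodes a cofactor of the eIF4A helicase, was at 8.15 and 13.8 FPKM, a relative value of 0.42. *Rbp2*, which RefSeq names eIF4H1 and which is not taken by the rule, was low at −1.16, from 31.4 to 17.7 FPKM. The components of the cap complex therefore differed widely in input level per length, with *eIF-4E* 7.40 times as abundant as its scaffold *eIF4G*.

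Of the 6 eIF4E genes taken by the rule, *eIF-4E* was the only one above 0.5 FPKM. *eIF4E-3*, which is known from spermatogenesis, and *eIF4E-6* were listed at 0 in both libraries. *eIF4E-4*, *eIF4E-5* and *eIF4E-7* were listed at 0 in the input and at 0.105, 0.102 and 0.0538 FPKM in the immunoprecipitate. For *eIF4E-5*, with a gene length of 1130 bp, such a value is close to that of a single read by the estimate above, and no fold was computed for these genes. Another relative, *4EHP*, binds the cap without binding eIF4G and represses maternal mRNAs such as *caudal*. It is not taken by the rule and had 21.1 FPKM in input RNA and 46.5 FPKM in bound RNA, a relative value of 0.81. Its span overlaps *CG10694* and *Syx1A*.

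The eIF3 mRNAs split into a low group and a group near the median gene. *eIF3-S10*, which encodes eIF3a, the largest subunit, had 124 FPKM in input RNA and 39.1 FPKM in bound RNA. *eIF3-S8*, which encodes eIF3c, had 204 and 73.4 FPKM, and *eIF3-S9*, which encodes eIF3b, had 315 and 118 FPKM. These 3 mRNAs had relative values of −2.00, −1.81 and −1.76, with 2.72% to 4.33% of all genes kept being lower. None of them overlaps another annotated gene, and they lie at 3R, 4429798 to 4433895, at 2R, 17665678 to 17669275, and at 2R, 17536213 to 17539142.

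The other 5 eIF3 members kept were within 2-fold of the median gene, from −0.71 to 0.04. They were *eIF-3p66* (eIF3d), which can contact the cap of some mRNAs in human cells, at −0.71, *Trip1* (eIF3i) at −0.65, *eIF3ga* (eIF3g) at −0.53, *Int6* (eIF3e) at −0.32 and *eIF-3p40* (eIF3h) at 0.04. *eIF-3p40* went from 367 FPKM in input RNA to 477 FPKM in bound RNA. It was thus 2.96 times as abundant as *eIF3-S10* in the input and 12.2 times as abundant in the immunoprecipitate. *eIF3gb*, a second gene for eIF3g, was listed at 0 in both libraries.

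Other eIF3 subunits are listed under names that the rule does not take and were added by their current RefSeq symbol after the values were known. Of the 7 genes, 5 passed the filter. *Tango7* (eIF3m) and *CG5642* (eIF3l) were low, at −1.46 and −1.37, from 355 to 163 FPKM and from 142 to 69.1 FPKM. *CG10306* (eIF3k), *CG9769* (eIF3f) and *Adam* (eIF3j), a loosely attached subunit, were above the median gene at 0.17, 0.30 and 0.62. *CG4810* and *CG8335*, second genes for eIF3d and eIF3f, were at or below 0.0423 FPKM in both libraries. Across 13 subunit mRNAs, 5 (38.5%) were thus 2-fold low, against 15.2% of all genes kept. None was 2-fold high, against 9.48% of all genes kept, and input levels ran from 124 to 527 FPKM.

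**Figure D3:**
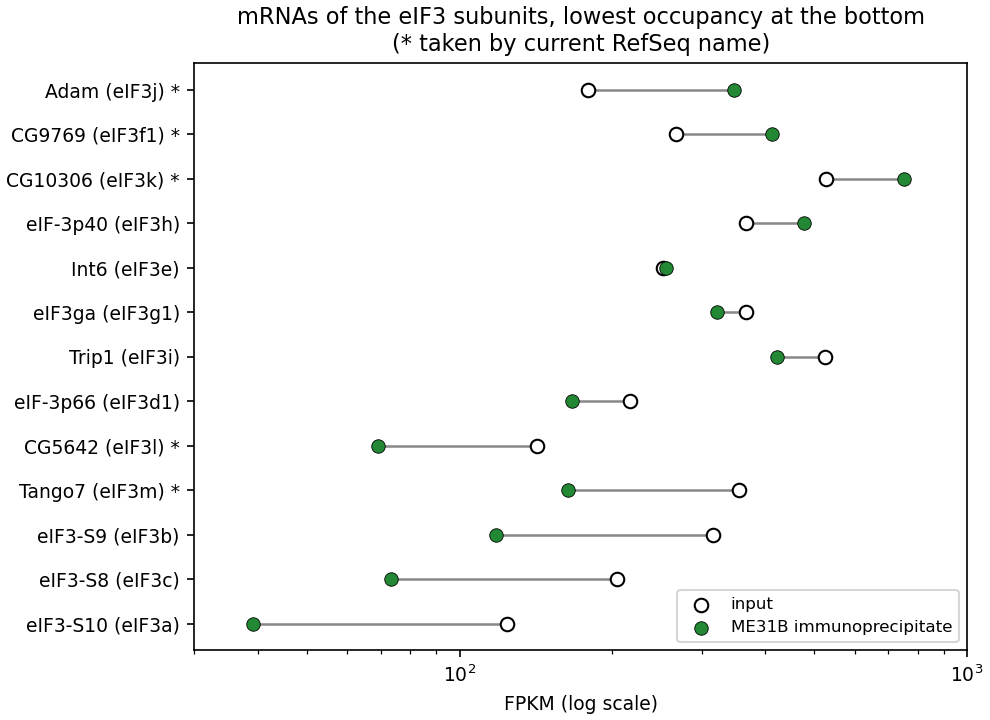
FPKM on a log scale (x axis) of 13 eIF3 subunit mRNAs in the input (open circles) and the immunoprecipitate (filled circles), joined by a line and ordered by occupancy; asterisks mark the 5 subunits added by their RefSeq name. The 5 subunits at the bottom have 39.1 to 163 FPKM in the immunoprecipitate, each below its input, and the 5 at the top a higher value in the immunoprecipitate than in the input.

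Among the factors of start site selection and subunit joining, the occupancies spread almost as widely as over all members. *eIF6*, whose protein keeps the large subunit from joining too early, had 91.2 FPKM in input RNA and 241 FPKM in bound RNA, a relative value of 1.07. *eIF5B*, which encodes the GTPase that promotes joining, had 41.6 and 14.4 FPKM, a relative value of −1.87. The difference between these mRNAs was 2.94 on the log2 scale. With the median of genes of similar span subtracted, *eIF6* and *eIF5B* stood closer, at 0.48 and −1.28. *eIF6* is a short gene (2R, 23849246 to 23850301) that overlaps *ytr*, and *eIF5B* spans 32320 bp (3L, 3428658 to 3460977) and overlaps no other gene.

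*eIF-1A*, which acts in scanning, was at 433 FPKM in input RNA and 641 FPKM in bound RNA, a relative value of 0.23. *eIF5*, which triggers GTP hydrolysis by eIF2 at the start codon, stood at −0.25 from 247 to 261 FPKM. *eIF2D*, which can place tRNA on the small subunit and acts in recycling, stood at −0.33 with 40.0 and 40.2 FPKM. These 3 mRNAs lay near the median gene. *eIF-5A*, named as an initiation factor but known to assist elongation and now called eEF5 in RefSeq, was the second most abundant member, with 4527 FPKM in input RNA and 2439 FPKM in bound RNA. Its relative value was −1.23, which fell short of 2-fold when values were not centred on the median gene, at −0.89, and its gene overlaps a long noncoding RNA gene. *CG17737*, which RefSeq names eIF1, had 811 and 800 FPKM and a relative value of −0.35. *CG7414*, named eIF2A, was low at −1.93, from 256 to 84.7 FPKM, and its gene overlaps *CG32448*.

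Elongation factor mRNAs included the lowest occupancies of all the factors and split along the subunits of eEF1. *Ef1alpha48D*, which encodes eEF1A, had 6019 FPKM in the input, the 22nd highest level of the genes kept, and 1446 FPKM in the immunoprecipitate. Its relative log2 occupancy was −2.39, 5.25-fold below the median gene, and 1.47% of all genes kept were lower. *EF2*, which encodes the translocase eEF2, had 2815 and 846 FPKM, a relative value of −2.07. *Ef1gamma*, a structural subunit of eEF1, had 763 and 322 FPKM, a relative value of −1.58.

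The nucleotide exchange subunits of the same complex were not low. *Ef1beta* had 1737 FPKM in input RNA and 1961 FPKM in bound RNA, a relative value of −0.16, and *eEF1delta* had 683 and 959 FPKM, a relative value of 0.15. *Ef1beta* and *Ef1gamma*, whose proteins bind each other, thus differed by 1.42 on the log2 scale. With the median of genes of similar span subtracted, they stood closer, at −0.75 and −1.81. In the input, *Ef1alpha48D* mRNA was 3.46 times as abundant as *Ef1beta*, while in the immunoprecipitate *Ef1beta* was 1.36 times as abundant as *Ef1alpha48D*. *Ef1alpha48D* lies at 2R, 11891135 to 11895762, and holds a snoRNA gene, *EF2* lies at 2L, 21677913 to 21682164, and holds a small noncoding RNA gene, and *Ef1gamma* lies at 3R, 29220172 to 29222109, with no overlap. *Ef1alpha100E*, the second eEF1A gene, was at 0.397 FPKM in input RNA and 0.175 FPKM in bound RNA. Its sequence is similar to that of *Ef1alpha48D*, and reads in shared stretches could be split between the genes.

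Occupancy differed with abundance and with gene length in these libraries, but for abundance it had no single direction. Of the 5 members at or above 1000 FPKM in the input, 4 were 2-fold low, with *Ef1beta* as the exception, and the median was −1.46. Among all 124 protein-coding genes at that level, 53 (42.7%) were 2-fold low and their median was −0.88. The 8 members at or above 500 FPKM, these 5 included, had a median of −1.35 with 62.5% low. For 203 protein-coding genes in that range the median was −0.48 with 29.6% low. Over 14 members with an input from 100 to 500 FPKM the median was −0.42 with 3 low and 2 high, where 937 protein-coding genes in that range had a median of 0.28, with 8.86% low and 12.6% high. The 11 members below 100 FPKM had a median of −0.19, against −0.05 for 5410 protein-coding genes. Across the 33 members the Spearman rho between occupancy and input FPKM was −0.22, and across 6550 protein-coding genes it was 0.21. These are descriptions across genes that share both libraries, and input FPKM enters both measures.

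Genomic span, introns included, was known for 31 of the 33 members, since *Int6* and *eIF4G* had no unique match in RefSeq. Over these 31 the rho between occupancy and span was −0.28, and over the 6550 protein-coding genes −0.45. Of 15 members under 2000 bp, 2 were low and 2 high (13.3% each) with a median of −0.33, where 2422 protein-coding genes under 2000 bp had a median of 0.42, with 5.41% low and 16.6% high. Of 6 members from 2000 to 4000 bp 2 were low and 1 high with a median of −0.78, against a median of −0.05, 10.7% low and 5.51% high for 1832 genes. Of 10 members of at least 4000 bp, 5 were low and none high, with a median of −1.15. The 2296 genes of that span had a median of −0.49, with 28.3% low and 2.92% high. The members thus had lower medians than protein-coding genes of like span in each of these 3 ranges, and the part of span or abundance in the occupancy of single mRNAs was not tested. With the median of genes of similar span subtracted, all 9 low mRNAs remained at least 2-fold low, whereas of the 3 high mRNAs only *eIF-4E* remained at least 2-fold high. *eIF-2alpha* and *eIF3ga* then also became low, at −1.21 and −1.12, and *eIF-4B* high, at 1.00, which gave 11 low and 2 high mRNAs. With the median of genes of similar input FPKM subtracted, *eIF-5A* was no longer 2-fold low, *eIF-2alpha* became low at −1.26, and again only *eIF-4E* remained 2-fold high. The shares of all genes 2-fold low or high after either subtraction were not computed, so these counts have no background.

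**Figure D4:**
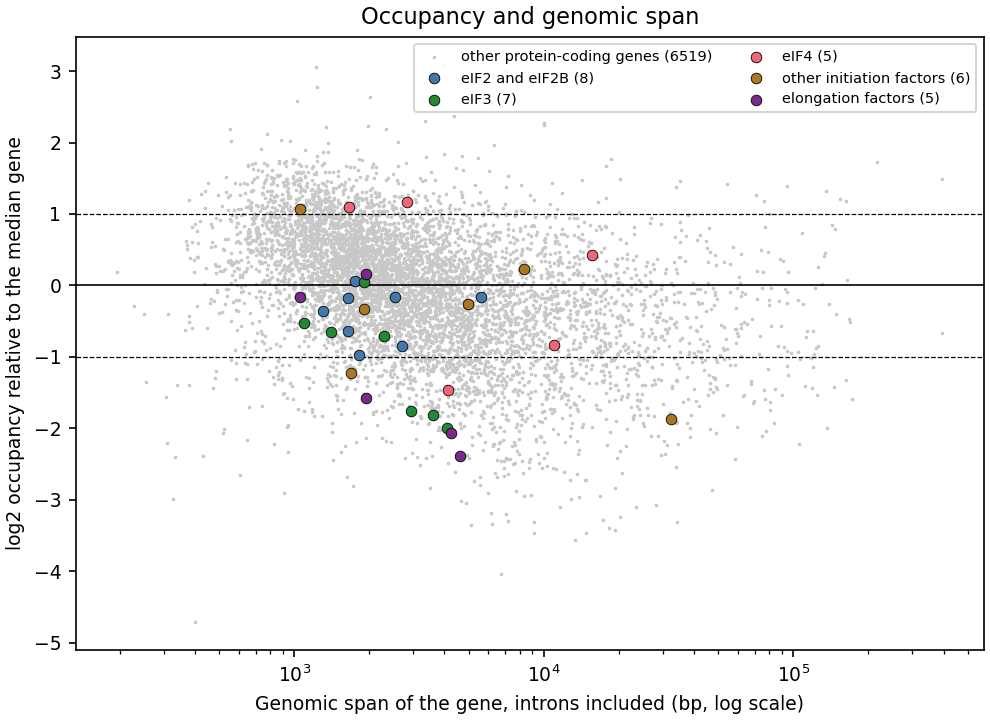
Log2 occupancy relative to the median gene (y axis) against genomic span in bp on a log scale (x axis) for 31 factor genes with a known span, coloured by family, and 6519 other protein-coding genes in grey. The low factors *eIF3-S8*, *eIF3-S10*, *EF2* and *Ef1alpha48D* lie between 3598 and 4628 bp, below most genes of that span.

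Genes that regulate or assist these factors were taken from a list of symbols outside the naming rule. The list was chosen with earlier results of these data known. Of its symbols 25 were found in the table, and all 25 passed the filter. Of these, 8 (32.0%) were 2-fold low and 1 (4.00%) was 2-fold high, with a median of −0.69, against 15.2% and 9.48% of all genes kept. The listed genes were long, and the low share was near the 28.3% of protein-coding genes of at least 4000 bp. Among proteins that bind eIF4E, *Thor*, which encodes 4E-BP, was the high gene at 1.64, from 1.31 FPKM in input RNA to 5.17 FPKM in bound RNA. That input level ranked 6668th of the 6886 genes kept and was below the 7.97 FPKM of *eIF4G2*, so the counting error per kilobase was larger. *mxt*, which encodes the eIF4E-binding protein Mextli, was at 0.86, from 31.8 to 72.7 FPKM. *cup* was low at −1.44, from 72.6 to 33.8 FPKM, and its span overlaps 4 other genes. The eIF4E-binding proteins thus lay on both sides of the median gene.

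The lowest of the list was *NAT1*, a relative of eIF4G that lacks the eIF4E-binding part, at −2.88, from 99.4 FPKM in input RNA to 17.0 FPKM in bound RNA. The eIF2 kinase *Gcn2* stood at −2.62 and the other eIF2 kinase *PEK* at −0.91. The kinases *Tor* and *Lk6*, which signal to the cap complex, stood at −2.44 and −2.18, whereas *S6k* stood at −0.28. *larp*, *bel*, which encodes the helicase Belle, and *pix*, which encodes the recycling ATPase ABCE1, were the remaining low genes at −1.62, −1.21 and −1.05. *pAbp*, which encodes the poly(A)-binding protein, was at −0.81 and its antagonist *Paip2* at 0.83. *eRF1*, the release factor, was at −0.73, *vas* at −0.96, *Fmr1* at −0.69 and the ribosomal scaffold *Rack1* at −0.60. The partners *DENR* and *MCTS1*, which act in reinitiation, stood at 0.74 and −0.05, *pelo*, which rescues stalled ribosomes, at 0.43, *kra* at 0.22, *EfSec*, the selenocysteine elongation factor, at 0.19 and *Elf* at −0.13. The median span of the listed genes with a RefSeq match was 6191 bp, against 2279 bp for the members.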

How the data were processed

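RNA from 1 ME31B immunoprecipitate and 1 input lysate of stage 14 oocytes was analysed. According to the methods and the submitters' notes, the authors depleted rRNA, made stranded libraries, sequenced 50-base single-end reads, trimmed and mapped them with STAR 2.5.2a to dm6 and quantified genes with Cufflinks 2.2.1. The deposited values are FPKM per gene, with no scaling between libraries stated. For the annotation, multiply mapped reads and strand, the settings were not given in the sources used here. The input column summed to 1072660 FPKM and the immunoprecipitate column to 1131582 FPKM.

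Occupancy was immunoprecipitate FPKM over input FPKM, as in the methods, whose minimum of 0.5 FPKM names no library and was applied here to both. The log2 without a pseudocount and the centring on the median gene were choices made here (pandas 2.3.3). The computation was tested on simulated data. Names and spans came from RefSeq Release 6, which matched 38 of 40 members and 6839 of 6886 genes kept. All members could be named. Members, families and lists were chosen with earlier results of these data known. The depth estimate used protein-coding genes under 1 FPKM and under 2500 bp and the window from 0.08 to 0.18, which held 320 of 803 and 345 of 791 genes. It takes span for transcript length and was set after the data were examined. Alternatives varied the filter, pseudocount, centring, threshold, and trends with abundance and span. No sequence was used.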

Additional observations from a re-analysis of the deposited data

How the results depend on the processing

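Alternatives using span, overlap or the omission of the most abundant members were chosen after seeing the data. The planned correction for protein length and the omission of mitochondrial members were not run, since no protein lengths were used here and no mitochondrial factor was a member. No paired analysis was possible because there is 1 library per condition. With no replicate, medians were taken as moved when they changed by over 0.25 on the log2 scale. Without a filter and with pseudocount 0.5, the medians were 0 for all 40 factors, 0.061 for eIF2 and eIF2B, −0.32 for eIF3, 0.044 for other initiation factors and −0.83 for elongation factors, as the median gene then had a log2 occupancy of 0. Without centring, which shifts all genes by 0.33, they were −0.030 for all factors, 0.061 for eIF2 and eIF2B, −0.35 for eIF3, 0.45 for eIF4, 0.044 for other initiation factors and −1.24 for elongation factors. The 2-fold counts of factors were then 3 high and 8 low, against 20.3% high and 9.15% low of all genes kept. Centred on the ratio of summed FPKM, the medians were −0.11, −0.016, −0.43, 0.37, −0.033 and −1.32 in the same order, with 17.4% of all genes kept high and 10.4% low. A 1.5-fold threshold gave 15 low and 3 high factors, and a 3-fold threshold 6 low and 0 high ones. The shares of all genes at these thresholds were not computed, so these counts have no background. With the trend on input FPKM subtracted, 1 factor was high and 9 were low, and the elongation factor median was −1.32. The share of all genes was not computed on that scale. With the trend on span subtracted, the medians were −0.74 for all factors, −0.56 for eIF2 and eIF2B, −1.12 for eIF3 and 0.86 for eIF4. Of the 11 factors with a known span and no overlap, 6 were low and 1 was high. The share of all genes without overlap was not computed. The median of the 11 was −1.46. By family it was −1.76 for eIF3, −0.15 for eIF4 and −0.16 for the 3 elongation factors left. The only other initiation factor left stood at −1.87. Without members over 1000 FPKM, 5 of 28 factors (17.9%) were low, against 15.2% of all genes kept. The medians were then 0.42 for eIF4 and −0.71 for elongation factors. A minimum of 5 FPKM in both libraries, a filter on the input only with pseudocount 0.1 and the same filter with pseudocount 0.5 moved no single factor by over 0.25. No factor called low or high changed sign under any alternative run.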

Other observations

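Mitochondria use translation factors of their own, which are encoded in the nucleus and were not taken by the naming rule. By their RefSeq symbols, chosen after the values of the other factors were known, 9 such genes were found and all passed the filter. None was 2-fold low and 1 (11.1%) was 2-fold high, against 15.2% and 9.48% of all genes kept, and the median log2 occupancy was 0.24 relative to the median gene, with 6 above it and 3 below it. The high gene was *CG4447*, named mRRF1 for a mitochondrial ribosome recycling factor, at 47.0 FPKM in input RNA and 143 FPKM in bound RNA, a relative value of 1.27. *EfTuM*, which encodes the mitochondrial counterpart of eEF1A, was the most abundant at 114 and 152 FPKM and stood at 0.08. Its exchange factor *CG6412* (mEFTs) stood at 0.45, from 85.8 to 148 FPKM.

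The mitochondrial translocase *ico* (mEFG1) stood at −0.40, from 45.0 to 43.1 FPKM. The initiation factors *CG12413* (mIF2) and *CG13163* (mIF3) stood at −0.10 and 0.27, and the release factor *CG5705* (mRF1) at 0.37. *EfTuM* therefore lay 2.47 above *Ef1alpha48D* on the log2 scale, and *ico* 1.67 above *EF2*. The mitochondrial factors were also less abundant, from 8.51 to 114 FPKM in the input, and their median span was 1831 bp. Protein-coding genes under 2000 bp had a median of 0.42, above the 0.24 of these factors, with 5.41% low and 16.6% high. Spans of 7 of the 9 genes overlap another annotated gene. The part of abundance, span or overlap in these differences was not tested.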
